A study of Mus musculus with 8 samples.

Results

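The 36 genes described here encode proteins that take a cell through G2 and mitosis. They are a named list, drawn up with earlier results of these data known, and were looked up by gene symbol in the deposited counts. All 36 were found among the 27179 gene identifiers counted in each library, and all 36 passed the filter that left 18163 genes to test. Polyadenylated RNA came from thymic epithelial cells (TECs) of C57BL/6 mice, in 8 libraries. Wild-type (WT) cortical cells (cTECs) gave 4 libraries and WT medullary cells (mTECs) gave 2. Mice with a knockout (KO) of Mcl1, which encodes an anti-apoptotic protein of the BCL-2 family, gave 1 library of cTECs and 1 of mTECs. The labels do not state age, sex, the deleted part of Mcl1, the promoter behind any Cre, or whether the KO libraries share animals. A KO library has no replicate and was assumed to vary as the WT libraries do.

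Entry into mitosis is driven by CDK1 bound to A- and B-type cyclins. Aurora and Polo-like kinases act with CDK1 on centrosomes, the spindle and kinetochores, and the spindle checkpoint holds the anaphase-promoting complex (APC/C) until chromosomes are attached. Once released, the APC/C with its activator CDC20 marks cyclin B for destruction, and cytokinesis follows. Most of these genes are transcribed in G2 and M phase and are low in resting cells, so their RNA in bulk tissue tracks dividing cells. In bulk RNA, more dividing cells and more RNA per dividing cell cannot be told apart. In the thymus, division of TECs is known to decline with age, and immature thymocytes divide beside them.

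The smallest library, KO mTEC, held 11516780 counts and the largest, the first of WT mTEC, 19171953. The 36 members took 0.0399 to 0.0897% of the counts in WT cTEC, 0.223% in KO cTEC, 0.0989 and 0.128% in WT mTEC and 0.182% in KO mTEC. Mitochondrial RNA took 0.698% in KO cTEC and 1.08 to 1.87% in WT cTEC. Mcl1 itself stood at 228, 302, 259 and 241 CPM (counts scaled to library size, with the trimmed mean of M values) in WT cTEC and at 8.23 in KO cTEC. In WT mTEC it stood at 113 and 203 CPM and at 78.7 in KO mTEC. Values of WT cTEC are always given in the order of libraries 1 to 4. The knockout was thus visible in the cTEC library (adjusted p = 0.000295, edgeR), and the mTEC difference did not pass the test (adjusted p = 0.538). WT cTEC libraries 2 to 4 stood apart from the other libraries in 8 immediate-early genes, which summed to 16610 to 23617 CPM there. The sum was 2484 CPM in WT cTEC library 1 and 4983 CPM in KO cTEC. In mTEC it was 1827 and 1003 CPM (WT) and 3050 CPM (KO). Cortical markers marked the cTEC libraries (8 genes summing to 4527 to 9477 CPM, against 2066 to 2393 CPM in mTEC). However, 7 medullary markers also summed to 1225 to 1360 CPM in WT cTEC, near the 1652 to 1704 CPM of WT mTEC, and only to 17.3 CPM in KO cTEC, where Aire was at 0. Ccl21a made up much of the sum in WT cTEC (657 to 964 CPM, against 507 and 282 CPM in WT mTEC), while Aire, Fezf2, Cd80 and Tnfrsf11a were called higher in WT mTEC than in WT cTEC. Tuft cell markers (5 genes) summed to 798 to 1395 CPM in WT cTEC, above the 497 and 541 CPM of WT mTEC and the 522 CPM of KO mTEC. In KO cTEC they summed to 38.2 CPM, and Trpm5 and Gnat3 were at 0. The part of these differences in the results below was not tested.

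Many genes of this programme carry 2 promoter elements, the CCAAT box bound by NF-Y and the cell cycle genes homology region (CHR) bound by MuvB complexes. The promoters are shown because many members moved together. RefSeq windows on GRCm38.p6, from 250 bases before to 50 after the start, were matched for 29 of the 36 members, and Ccna2, Aurkb, Kif20a, Incenp, Tpx2, Cdc25c and Dlgap5 had no entry. The Kif2c window lies inside the annotated gene, not at its outermost start, and is counted below among the windows without both elements. The letters CCAAT were searched on both strands, as were the CHR spellings TTTGAA and TTCGAA, and a CHR match can share its end base with a CCAAT match. The stretches below run 120 bases before to 20 after the start, on the gene's strand, with every match in capitals (ATTGG and TTCAAA are matches on the other strand). All 6 members shown hold both elements, among them Bub3, whose log2 difference in KO cTEC was the smallest of the 36.
Cdc20, minus strand, chr4:118437324-118437463: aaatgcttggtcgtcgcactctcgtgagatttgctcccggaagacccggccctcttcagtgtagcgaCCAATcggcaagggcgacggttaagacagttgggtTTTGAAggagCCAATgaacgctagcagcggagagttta
Ube2c, plus strand, chr2:164769809-164769948: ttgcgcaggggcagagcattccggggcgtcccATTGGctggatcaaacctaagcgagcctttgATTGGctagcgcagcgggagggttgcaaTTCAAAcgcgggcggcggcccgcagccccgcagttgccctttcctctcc
Ccnb2, minus strand, chr9:70421535-70421674: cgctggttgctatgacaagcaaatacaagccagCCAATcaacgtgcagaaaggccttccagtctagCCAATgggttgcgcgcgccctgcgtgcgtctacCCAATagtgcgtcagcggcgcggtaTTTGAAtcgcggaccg
Cdk1, minus strand, chr10:69352893-69353032: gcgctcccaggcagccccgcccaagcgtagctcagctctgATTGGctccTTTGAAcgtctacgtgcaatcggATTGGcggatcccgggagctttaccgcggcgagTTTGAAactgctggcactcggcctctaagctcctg
Hmmr, minus strand, chr11:40733418-40733557: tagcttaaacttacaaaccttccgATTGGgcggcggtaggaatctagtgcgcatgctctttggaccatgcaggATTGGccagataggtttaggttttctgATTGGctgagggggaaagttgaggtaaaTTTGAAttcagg
Bub3, plus strand, chr7:131560250-131560389: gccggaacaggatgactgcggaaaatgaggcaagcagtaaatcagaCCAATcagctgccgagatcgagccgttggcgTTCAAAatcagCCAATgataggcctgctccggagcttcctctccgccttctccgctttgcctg
In Ccnb2 the 3 CCAAT boxes lie 33 bases apart. CCAAT occurred in 23 of 29 member windows (79.3%), against 38.3% of the 13677 tested genes with a window. A CHR spelling occurred in 23 of 29 (79.3%), against 14.9% of tested genes. Both occurred in 21 of 29 (72.4%), against 6.22%, and at least 2 CCAAT boxes in 16 of 29 (55.2%), against 13.7%. These matches describe the windows and are not measured binding.

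Per kilobase of counted gene length, the members spanned a wide range in WT cTEC. Bub3, a checkpoint protein also used outside mitosis, was highest at 69.1 ± 7.53 CPM per kb (SD, n = 4). Mad2l1, which encodes the checkpoint effector MAD2, came next at 19.2 ± 4.93. Ube2c (8.81 ± 5.31), Racgap1 (7.80 ± 1.45), Ccnb2 (7.76 ± 4.94) and Cdc20 (7.54 ± 4.43) followed, and neighbours among these 4 do not differ beyond their spread. The lowest was Bub1 at 0.633 ± 0.450 CPM per kb. In KO cTEC the order by length-scaled level was Bub3 at 97.3, Cdc20 at 76.3, Ube2c at 75.5, Ccnb2 at 52.4 and Mad2l1 at 34.8 CPM per kb, so Cdc20 moved from rank 6 to rank 2.

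**Figure D1:**
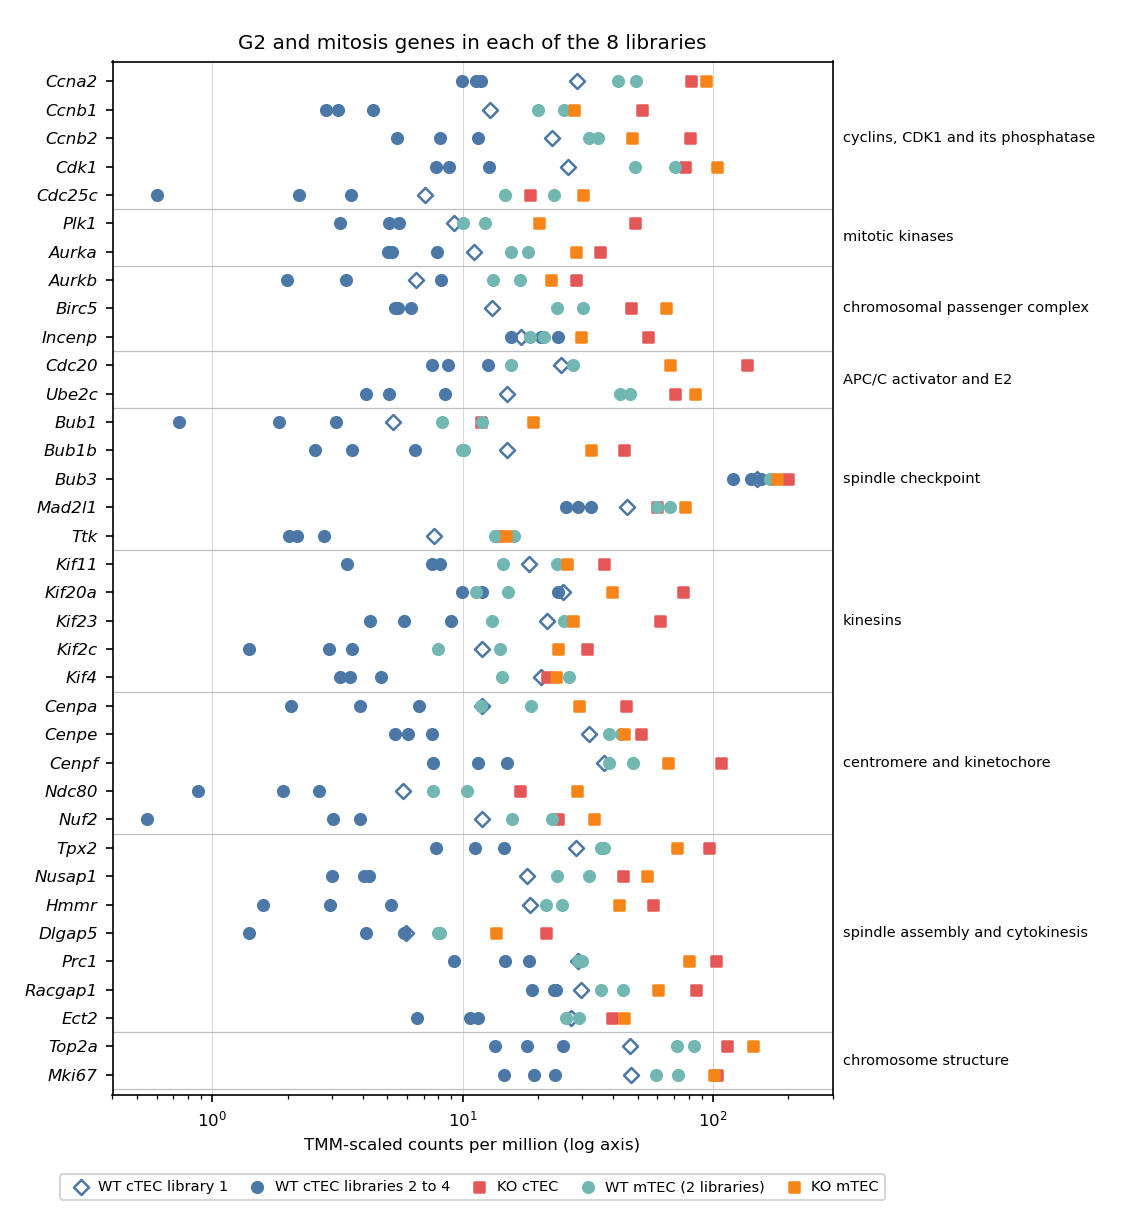
Levels of the 36 members in CPM (x axis, log scale) in all 8 libraries, by role (right). Each symbol is 1 library. The KO cTEC squares lie to the right of all 4 WT cTEC symbols for every member, and WT cTEC library 1 (open diamond) is the highest WT cTEC library for 33 of 36.

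Mitotic genes were higher in KO cTEC than in WT cTEC. Of the 36 members, 23 rose and 0 fell in the quasi-likelihood test (adjusted p under 0.05), where 5.1% of all tested genes rose and 12.4% fell. The median log2 fold change was 2.48 (range 0.49 to 3.34), against -0.14 over all tested genes, and the called changes began at 1.52 for Incenp. In 36 of 36 the KO library exceeded all 4 WT libraries, against 29% of tested genes. Without WT cTEC library 2, 3 or 4 the count was 19, 18 or 22, and without either WT mTEC library 19. Without WT cTEC library 1 it was 35, with a median log2 difference of 3.00 against -0.13 over all tested genes. With that library as the only WT cTEC library, in a fit whose spread rests on the pair of WT mTEC libraries, the count was 27 and the median 1.46. Of the 21 members whose window held both promoter elements 14 rose, and of the 8 without both 3 rose, with median log2 differences of 2.48 and 2.59. Among other tested genes 7.59% of the 830 with both elements rose, and 4.98% of the 12818 without.

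Of the 5 cyclin, CDK1 and CDK1 phosphatase genes 4 rose. Ccnb1, the main mitotic cyclin, stood at 12.8, 3.17, 4.398 and 2.85 CPM in WT cTEC and at 52.3 in KO cTEC, with 19.97 and 25.4 in WT mTEC and 27.9 in KO mTEC. Ccnb2, its Golgi-associated relative, stood at 22.8, 5.46, 8.09 and 11.5 CPM in WT cTEC, 80.8 in KO cTEC, 31.9 and 34.7 in WT mTEC and 47.4 in KO mTEC. Cdk1, the mitotic kinase, was at 26.5, 7.82, 8.797 and 12.7 CPM in WT cTEC, 77.6 in KO cTEC, 49.02 and 70.5 in WT mTEC and 103 in KO mTEC. For all 3 genes the KO cTEC library lay above every WT cTEC library, and WT cTEC library 1 was the highest of the 4 WT cTEC libraries. Ccnb1 rose by 3.17 ± 0.64 on the log2 scale (SE, adjusted p = 0.0114, edgeR). Cdc25c, the phosphatase that activates CDK1, stood at 7.06, 2.21, 3.58 and 0.603 CPM in WT cTEC, 18.6 in KO cTEC, 14.8 and 23.2 in WT mTEC and 30.2 in KO mTEC. Its log2 difference in cTEC was 2.48 ± 0.82, with an adjusted p of 0.0734.

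The mitotic kinases Plk1 and Aurka rose, as did Aurkb, counted below with the chromosomal passenger complex. The kinases Bub1 and Ttk, counted below with the spindle checkpoint, did not pass. Plk1, which drives centrosome maturation and mitotic entry, stood at 9.27, 3.25, 5.104 and 5.59 CPM in WT cTEC, 48.7 in KO cTEC, 10.1 and 12.3 in WT mTEC and 20.2 in KO mTEC. Aurka, the spindle pole kinase, was at 11.1, 5.02, 5.21 and 7.898 CPM in WT cTEC, 35.4 in KO cTEC, 15.6 and 18.2 in WT mTEC and 28.3 in KO mTEC. Plk1 rose by 3.07 ± 0.44 on the log2 scale (SE, adjusted p = 0.00241, edgeR), and its KO cTEC value exceeded that of every other library. The chromosomal passenger complex, which corrects kinetochore attachment, had 3 of 3 members rise. Aurkb, its kinase, was at 6.49, 1.99, 3.42 and 8.17 CPM in WT cTEC, 28.3 in KO cTEC, 13.3 and 17.01 in WT mTEC and 22.6 in KO mTEC. Birc5, which encodes survivin, was at 13.1, 5.38, 6.24 and 5.54 CPM in WT cTEC, 47.2 in KO cTEC, 23.8 and 30.2 in WT mTEC and 64.9 in KO mTEC. Incenp, the scaffold, was at 17.1, 23.97, 15.6 and 20.6 CPM in WT cTEC and 55.1 in KO cTEC. Incenp, Aurkb and Bub3 were the 3 members for which WT cTEC library 1 was not the highest WT cTEC library.

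The 2 genes that act on the APC/C had the largest and the third largest fold changes. Cdc20, its mitotic activator, was at 24.8, 8.78, 12.7 and 7.51 CPM in WT cTEC, 136 in KO cTEC, 15.6 and 27.5 in WT mTEC and 67.1 in KO mTEC. Ube2c, its ubiquitin-conjugating enzyme, was at 15.1, 4.13, 8.53 and 5.101 CPM in WT cTEC, 70.2 in KO cTEC, 42.4 and 46.6 in WT mTEC and 85.05 in KO mTEC. For Cdc20 the KO cTEC level was above all 7 other libraries, while for Ube2c it lay between KO mTEC and the WT libraries. Cdc20 rose by 3.34 ± 0.52 on the log2 scale (SE, adjusted p = 0.00354, edgeR). Ube2c rose by 3.10 ± 0.50 (adjusted p = 0.00446, edgeR).

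Among spindle checkpoint genes 1 of 5 rose. Bub1b, which encodes the checkpoint kinase BUBR1, was at 15.1, 3.61, 6.46 and 2.58 CPM in WT cTEC, 44.3 in KO cTEC, 9.96 and 10.1 in WT mTEC and 32.5 in KO mTEC. It passed in the cTEC comparison (adjusted p = 0.0317, edgeR), and its 2 KO libraries were the highest of all 8. The call was lost without WT cTEC library 2 or 3 and without WT mTEC library 1 or 2, and 0 of these 5 genes then passed. Bub3 stood at 149.6, 142, 155 and 120.1 CPM in WT cTEC, 199.9 in KO cTEC, 172 and 168 in WT mTEC and 179.8 in KO mTEC. Mad2l1 stood at 45.3, 28.99, 25.96 and 32.5 CPM in WT cTEC, 59.96 in KO cTEC, 59.5 and 67.5 in WT mTEC and 77.4 in KO mTEC. These 2 genes, the most abundant for their length in WT cTEC, had the smallest log2 differences, 0.49 ± 0.19 (adjusted p = 0.119, edgeR) and 0.85 ± 0.29 (adjusted p = 0.0784). The kinases Bub1 and Ttk differed by 2.10 ± 0.74 (adjusted p = 0.0894) and 1.92 ± 0.65 (adjusted p = 0.0795) on the log2 scale.

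Of 5 kinesins, the motors of the spindle and midzone, 2 rose. Kif11, which pushes spindle poles apart, was at 18.3, 3.47, 8.15 and 7.51 CPM in WT cTEC, 36.7 in KO cTEC, 14.5 and 23.9 in WT mTEC and 26.1 in KO mTEC. Kif20a, needed for cytokinesis, was at 25.2, 11.9, 9.94 and 23.97 CPM in WT cTEC, 76.1 in KO cTEC, 11.3 and 15.2 in WT mTEC and 39.4 in KO mTEC. Kif20a rose along with the midzone motor Kif23, whose call was lost without WT cTEC library 2, 3 or 4 and without WT mTEC library 1 or 2. Kif20a was the only member whose WT mTEC mean lay below that of WT cTEC. Log2 differences that did not pass were 1.97 ± 0.64 for Kif11 (adjusted p = 0.0698, edgeR), 2.67 ± 0.81 for the microtubule depolymerase Kif2c (adjusted p = 0.0561) and 1.45 ± 0.89 for the chromokinesin Kif4 (adjusted p = 0.302). Kif4 stood at 20.5, 3.25, 4.72 and 3.57 CPM in WT cTEC and at 21.7 in KO cTEC, so WT cTEC library 1 nearly reached the KO level, and with that library as the only WT cTEC library the log2 difference was -0.0060.

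At centromeres and kinetochores 3 of 5 genes rose. Cenpa, the centromeric histone, was at 11.98, 3.91, 2.06 and 6.69 CPM in WT cTEC, 44.8 in KO cTEC, 11.8 and 18.8 in WT mTEC and 29.2 in KO mTEC. Cenpf, an outer kinetochore protein, was at 36.7, 7.597, 11.5 and 15.1 CPM in WT cTEC, 108 in KO cTEC, 38.6 and 47.9 in WT mTEC and 65.9 in KO mTEC. Ndc80, the microtubule-binding subunit of the kinetochore, was at 5.78, 1.92, 2.66 and 0.878 CPM in WT cTEC, 16.9 in KO cTEC, 7.59 and 10.5 in WT mTEC and 28.7 in KO mTEC. Cenpa and Cenpf were highest in KO cTEC and Ndc80 in KO mTEC. Cenpa rose by 2.87 ± 0.66 on the log2 scale (SE, adjusted p = 0.0204, edgeR), and without WT cTEC library 2 its adjusted p was 0.0516. Ndc80 lost its call without WT cTEC library 2 or 3 and without WT mTEC library 1 or 2. The kinetochore motor Cenpe and Nuf2, the partner of NDC80, differed by 2.03 ± 0.80 (adjusted p = 0.124) and 2.32 ± 0.99 (adjusted p = 0.15).

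Spindle assembly and cytokinesis genes rose in 4 of 7 cases. Tpx2, which activates Aurora A on the spindle, was at 28.5, 7.82, 11.2 and 14.6 CPM in WT cTEC, 96.5 in KO cTEC, 35.5 and 36.7 in WT mTEC and 71.6 in KO mTEC. Hmmr, a spindle-associated hyaluronan receptor, was at 18.6, 2.95, 5.16 and 1.59 CPM in WT cTEC, 57.8 in KO cTEC, 21.5 and 24.99 in WT mTEC and 42.2 in KO mTEC. Tpx2 rose, as did the midzone bundler Prc1, Racgap1 of the centralspindlin complex and the spindle assembly factor Dlgap5. The call for Dlgap5 was lost without WT cTEC library 3 and without WT mTEC library 1 or 2. Hmmr had a log2 difference of 3.04 ± 0.90 that did not pass (adjusted p = 0.0544, edgeR), and its WT cTEC libraries spread from 1.59 to 18.6 CPM. Nusap1, a spindle microtubule bundler, and Ect2, the cytokinetic exchange factor, differed by 2.59 ± 0.77 (adjusted p = 0.0538) and 1.50 ± 0.57 (adjusted p = 0.109). Of the 2 chromosome structure genes, Top2a, which disentangles chromatids, was at 46.7, 13.5, 18.03 and 25.2 CPM in WT cTEC, 114 in KO cTEC, 71.5 and 83.8 in WT mTEC and 144 in KO mTEC. Mki67, which encodes the proliferation antigen Ki-67, was at 47.01, 14.7, 19.3 and 23.4 CPM in WT cTEC, 104 in KO cTEC, 59.04 and 72.4 in WT mTEC and 101 in KO mTEC. Both rose in KO cTEC, and KO cTEC lay above all 4 WT cTEC libraries. The call for Mki67 was lost without WT cTEC library 3 or 4.

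Markers of other cells were read in the same libraries. Thymocyte markers (14 genes) summed to 51.0 CPM in KO cTEC, below the 90.2 to 184 CPM of WT cTEC. Erythroid markers (5 genes) summed to 408 CPM in KO cTEC against 16.3 to 71.4 CPM in WT cTEC, most of it from the globins Hba-a1 and Hbb-bs. Alas2, an enzyme gene of erythroid heme synthesis, stood at 27.6 CPM in KO cTEC and 7.06, 4.94, 6.68 and 4.498 CPM in WT cTEC. Both globins and Alas2 rose in KO cTEC (Alas2 by 2.25 ± 0.31 on the log2 scale, adjusted p = 0.00198, edgeR). Klf1, an erythroid transcription factor gene, was at 0.129 CPM in KO cTEC and 0.285, 0.738, 0.326 and 1.04 CPM in WT cTEC, and was not higher. Dendritic cell and macrophage markers (6 genes) summed to 10.9 CPM in KO cTEC and 129 to 234 CPM in WT cTEC. Fibroblast markers (6 genes) summed to 971 CPM in KO cTEC and 705 to 908 CPM in WT cTEC, and 5 of the 6 had a log2 difference above 0 (median 1.18). Col1a1, a collagen gene, stood at 81.6 CPM in KO cTEC and 5.92, 11.5, 15.7 and 6.64 CPM in WT cTEC, and was the 1 of 6 that rose (3.03 ± 0.45, adjusted p = 0.00299, edgeR). The immediate-early genes summed to 4983 CPM in KO cTEC, nearer to WT cTEC library 1 than to libraries 2 to 4. The part of all these genes in the result was not tested.

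**Figure D2:**
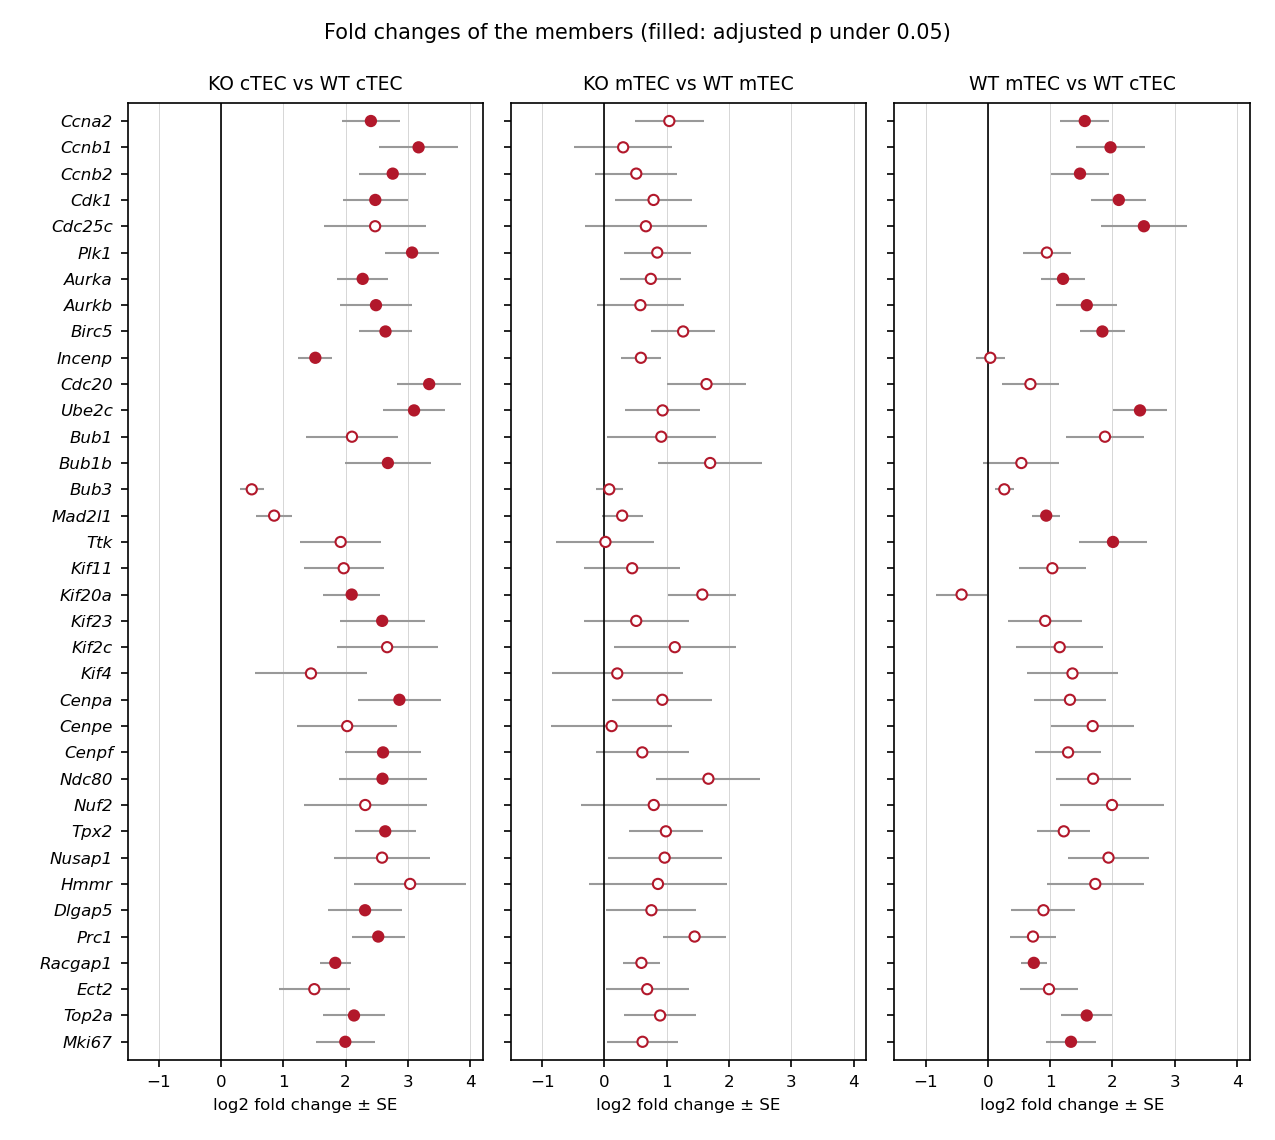
Log2 fold changes of the 36 members (points, with SE bars) in 3 comparisons, with filled points for an adjusted p under 0.05. In KO cTEC against WT cTEC 23 points are filled, in KO mTEC against WT mTEC 0, and in WT mTEC against WT cTEC 14.

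Within WT cTEC the members varied more than most genes, and library 1 was usually the highest. The median coefficient of variation over the 4 libraries was 62.7% (range 10.9 to 111%), against 25.2% over all tested genes, where counting error alone gives the members 8.51%. Library 1 was highest of the 4 for 33 of 36 members, against 32.6% of tested genes. Its level over the mean of libraries 2 to 4 had a median ratio of 2.71, from 0.851 for Incenp to 5.76 for Hmmr, where the median over all tested genes was 0.993. Without library 1 the median coefficient of variation was 30.7%, against 20.9% over all tested genes. Even against library 1 alone, KO cTEC was higher for 36 of 36 members, by a median of 2.93-fold (1.06-fold for Kif4 to 5.48-fold for Cdc20) and by 2-fold or more for 30, against 11.8% of tested genes. Library 1 was also the WT cTEC library with the lowest immediate-early sum, and whether the 2 go together was not tested. In summed level the members reached 864 CPM in library 1 and 392, 450 and 463 CPM in libraries 2 to 4.

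**Figure D3:**
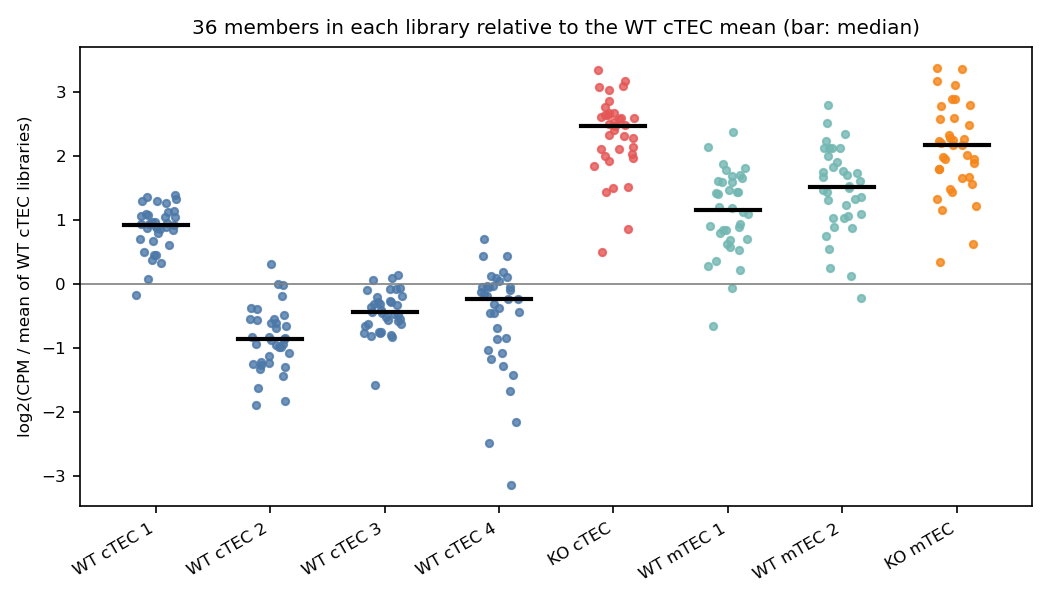
Each point is 1 member's CPM in 1 library, as the log2 ratio to its WT cTEC mean (y axis), with bars for the medians over 36 members. WT cTEC library 1 lies above libraries 2 to 4, and the median of each KO library lies above those of the WT libraries of its population.

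In WT mice mitotic RNA was higher in mTEC than in cTEC for 14 of 36 members and lower for 0, where 13.2% of tested genes rose and 13.9% fell. The median log2 difference was 1.33 (range -0.42 for Kif20a to 2.50 for Cdc25c), against 0.06 over all tested genes. Cyclins, CDK1 and Cdc25c passed in 5 of 5 and chromosome structure genes in 2 of 2. Of the 5 kinetochore genes 0 passed in edgeR, with 5 at an unadjusted p under 0.05, a median log2 difference of 1.68 and calls for 4 with DESeq2 and 5 with limma-voom. Differences between roles were not tested. The levels are those given above by gene, and for 25 of 36 both WT mTEC libraries lay above all WT cTEC libraries, against 30.3% of tested genes. Cdc25c rose by 2.50 ± 0.69 on the log2 scale (SE, adjusted p = 0.0305, edgeR), Ube2c by 2.44 ± 0.43 (adjusted p = 0.0066), Cdk1 by 2.10 ± 0.44 (adjusted p = 0.012), Ttk by 2.01 ± 0.54 (adjusted p = 0.028) and Ccnb1 by 1.97 ± 0.55 (adjusted p = 0.0322). The count depended on single libraries, while the members' median log2 difference was 1.12 to 1.89 when 1 library was left out. Over all tested genes that median was 0.03 to 0.07. The share of all tested genes called in these fits is not given here. Leaving out WT cTEC library 1, 2, 3 or 4 gave 32, 4, 4 or 8 members, and leaving out WT mTEC library 1 or 2 gave 3 or 0. With WT cTEC library 1 as the only WT cTEC library, the median log2 difference fell to 0.38, against 0.04 over all tested genes. In that fit 28 of 36 members were above 0. With limma-voom 25 members rose, against 20.8% of tested genes. Dendritic cell and macrophage markers summed to 776 and 1044 CPM in WT mTEC against 129 to 234 CPM in WT cTEC, and 7 of the 8 immediate-early genes fell. The part of these genes was not tested. This comparison shares the WT cTEC libraries with that of KO cTEC.

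In KO mTEC against WT mTEC no member passed the test (0 of 36, where 0% of tested genes passed). DESeq2 and limma-voom also called 0, where they called 0.679% and 0% of tested genes as higher, and 4 members had an unadjusted p under 0.05, against 3.54% of tested genes that were higher at that level. All 36 log2 differences were above 0, against 47.9% of tested genes, with a median of 0.77 and a range of 0.02 for Ttk to 1.70 for Bub1b. KO mTEC lay above both WT mTEC libraries for 34 of 36 members, against 38.6%, the exceptions being Ttk and Kif4. With WT cTEC library 1 as the only WT cTEC library, in the fit whose spread rests on the WT mTEC pair, 11 members passed. In that fit the members' median log2 difference was 0.78, against -0.02 over all tested genes. The largest log2 differences of the main fit were 1.70 ± 0.83 for Bub1b (adjusted p = 0.643, edgeR), 1.67 ± 0.83 for Ndc80 (adjusted p = 0.646) and 1.64 ± 0.63 for Cdc20 (adjusted p = 0.566). In summed level the members stood at 1043 and 1259 CPM in WT mTEC and at 1897 CPM in KO mTEC. Erythroid markers summed to 957 CPM in KO mTEC against 66.8 and 32.7 CPM in WT mTEC, and fibroblast markers to 1037 CPM against 173 and 145 CPM. The part of these other cells in the mTEC values was not tested.

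The difference of the KO effects, mTEC minus cTEC, was below 0 for all 36 members, with a median of -1.53 on the log2 scale, where 54.2% of tested genes were above 0. No member passed the test of that difference (0 of 36, where 0.644% of tested genes passed as lower and 6.16% as higher). DESeq2 and limma-voom called 0 as well, where they called 1.51% and 0.0551% of tested genes as lower. In edgeR 5 members had an unadjusted p under 0.05, against 4.48% of tested genes that were lower at that level. Ccnb1 had the largest difference at -2.87 ± 1.11 (adjusted p = 0.198, edgeR), followed by Ccnb2 at -2.25 ± 0.92 (adjusted p = 0.226) and Plk1 at -2.22 ± 0.75 (adjusted p = 0.143). Without WT cTEC library 1, 17 members passed, all lower. In that fit the members' median log2 difference was -2.09, against 0.08 over all tested genes. With library 1 as the only WT cTEC library, the median was -0.56, against 0.15 over all tested genes. In this second fit 5 of 36 members were above 0. Across all 8 libraries KO cTEC was the highest for 22 members (22.1% of tested genes), KO mTEC for 12 (16.4%) and WT mTEC library 2 for 2.

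A further 90 genes of G2 and mitosis, outside the 36, also held many higher genes in KO cTEC: 27 rose and 0 fell, with a median log2 difference of 0.99, where 5.1% of all tested genes rose and 12.4% fell. Kif18b, a microtubule depolymerase, stood at 2.57, 2.14, 2.33 and 0.1097 CPM in WT cTEC and at 25.8 in KO cTEC. Cdca2, a mitotic phosphatase subunit, stood at 4.78, 3.76, 4.18 and 5.101 CPM in WT cTEC and at 38.5 in KO cTEC. These 2, Cdca3 and the spindle motor Kifc1 had the largest called changes, at 3.86 ± 0.89, 3.11 ± 0.32, 3.10 ± 0.63 and 2.51 ± 0.58 on the log2 scale. By subgroup, 14 of 27 spindle and cytokinesis genes rose, 5 of 16 kinetochore genes, 3 of 8 cohesin and condensin genes, 3 of 19 APC/C genes and 1 of 10 entry kinases and phosphatases. Of the 10 genes that transcribe the programme only Foxm1 rose, by 1.60 ± 0.41 (adjusted p = 0.0312, edgeR), from 11.1, 11.7, 5.97 and 10.04 CPM in WT cTEC to 29.3 in KO cTEC. With WT mTEC library 1 or 2 left out its adjusted p was 0.0539 or 0.0535. Mybl2, the B-Myb gene, did not pass at 0.72 ± 0.75 (adjusted p = 0.539). The count of 27 was 43 without WT cTEC library 1, 15 without library 3, and 16 with WT mTEC library 1 or 2 left out.

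In WT mTEC against cTEC 18 of these 90 rose, led by Pbk, a mitotic kinase (2.46 ± 0.39), the condensin subunit Ncapg (2.37 ± 0.73), Melk (2.08 ± 0.36) and the kinetochore scaffold Knl1 (1.87 ± 0.47). The APC/C subunits Anapc1, Anapc2 and Cdc16 fell, by 0.99 ± 0.15, 0.74 ± 0.20 and 0.67 ± 0.19 on the log2 scale. The share that rose (18 of 90) stands beside 13.2% of all tested genes, and the share that fell (3 of 90) beside 13.9%. The total of 21 was 41 without WT cTEC library 1, 10 without library 2 or 3, 3 without WT mTEC library 1 and 0 without WT mTEC library 2. In KO mTEC and in the difference of KO effects 0 of 90 passed in edgeR. In KO mTEC 3 had an unadjusted p under 0.05, as did 1502 of the 18163 tested genes. In the difference of KO effects 5 did, 1 of them higher, as did 3499 of the 18163 tested genes. Without WT cTEC library 1 or 4, 4 or 1 passed the test of the difference.

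Of the replication genes of S phase, 5 of 24 rose and 0 fell in KO cTEC, with a median log2 difference of 1.08, where 5.1% of all tested genes rose. Their summed level was 652, 499, 530 and 465 CPM in WT cTEC, 1004 in KO cTEC, 593 and 712 in WT mTEC and 989 in KO mTEC. Of 15 genes that restrain the cycle, 5 fell and 1 rose in KO cTEC, where 12.4% of all tested genes fell and 5.1% rose. Cdkn1a, which encodes the CDK inhibitor p21, stood at 172, 243, 186 and 231 CPM in WT cTEC, 11.1 in KO cTEC, 392 and 250.2 in WT mTEC and 303 in KO mTEC. It was lowest in KO cTEC, with a log2 change of -4.23 ± 0.40 (adjusted p = 0.000363, edgeR). KO cTEC lay below all 4 WT cTEC libraries for Cdkn1a, as it did for 32.9% of tested genes. The 4 other genes that fell, and Cdkn2c, were picked out after their values were seen. Cdkn1c, which encodes p57, changed by -3.97 ± 0.68 (adjusted p = 0.00574, edgeR) and Cdkn2b, which encodes p15, by -3.49 ± 0.39 (adjusted p = 0.000813). Btg1, an anti-proliferative gene, changed by -1.82 ± 0.32 (adjusted p = 0.00611). Cdkn2a, at 1.14, 1.696, 0.869 and 1.43 CPM in WT cTEC and 0.0643 in KO cTEC, lost its call with limma-voom and with WT cTEC library 2, WT mTEC library 1 or WT mTEC library 2 left out. Cdkn2c, the p18 inhibitor gene, rose by 1.32 ± 0.28 (adjusted p = 0.0145, edgeR). Cdkn1b (-0.70 ± 0.45, adjusted p = 0.32) and Ccng2 (0.01 ± 0.18, adjusted p = 0.984), genes linked to exit from the cycle, did not pass. The inhibitor genes Cdkn1c, Cdkn2a and Cdkn2b rose in WT mTEC against WT cTEC, and Rbl2 (-0.84 ± 0.17) and Btg2 (-2.72 ± 0.79) fell, where 13.2% of all tested genes rose and 13.9% fell. These 5 were also picked out after their values were seen. Medullary and tuft markers were lower in KO cTEC than in WT cTEC, as given above, and their part in the inhibitor values was not tested.

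**Figure D4:**
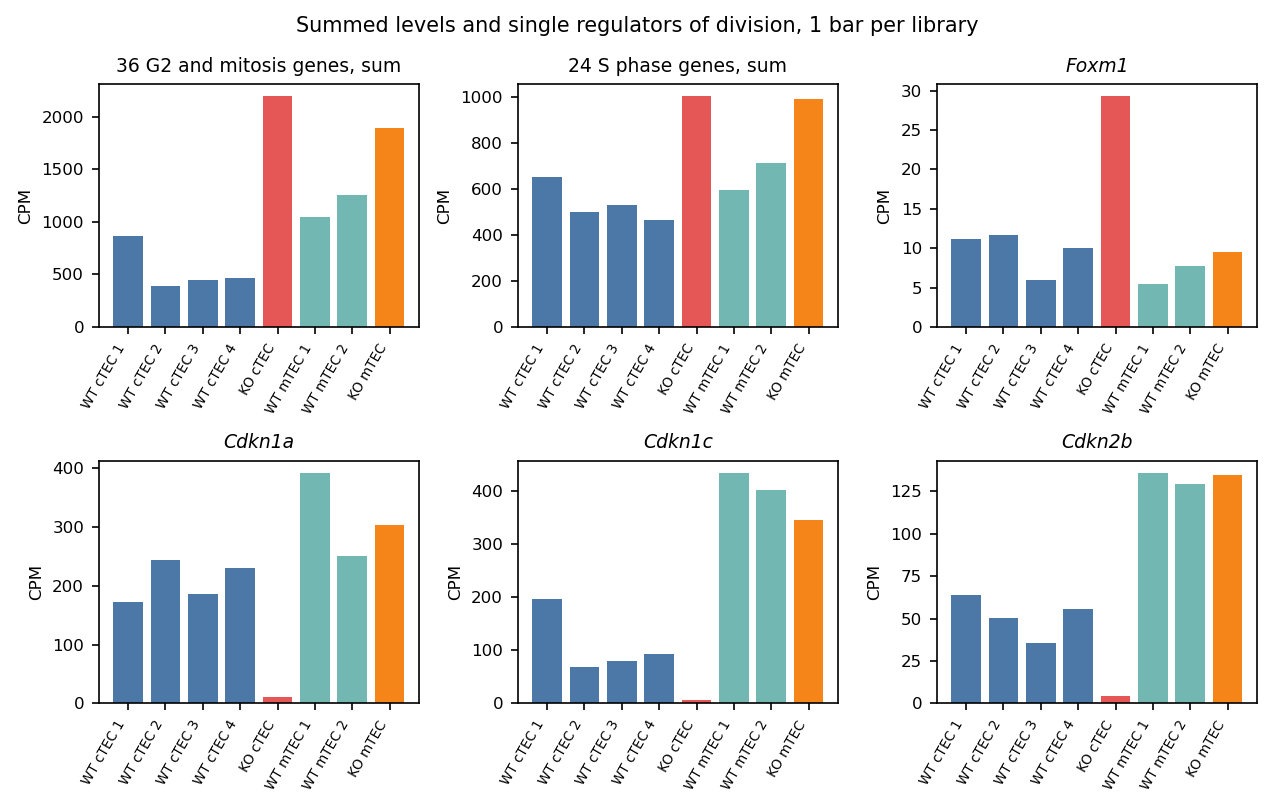
CPM by library (1 bar each) of the summed 36 members, 24 S phase genes, Foxm1, Cdkn1a, Cdkn1c and Cdkn2b. KO cTEC is highest for the members (2199 CPM) and lowest for the 3 inhibitors.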

How the data were processed

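RNA was isolated from frozen cell pellets, amplified with a low-input full-length cDNA kit and sequenced as 75-base paired ends, per the labels' protocols. The deposited values are raw counts per Entrez gene, made by the authors with featureCounts on mm10, per the submitters' processing notes. For versions, aligner, annotation and strand setting the sources used here give nothing. The 8 columns of a table of the whole series match no label and were left out.

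Symbols came from a mouse gene table (25275 identifiers matched). Genes that reached a CPM of 1 in 2 or more libraries (18163) were fitted with TMM scaling, 1 mean per group and the robust quasi-likelihood F test of edgeR 4.0.16 in R 4.3.3 (two-sided, 4 residual degrees of freedom, Benjamini-Hochberg over all genes, called at an adjusted p under 0.05). The SE is the absolute log2 fold change over the square root of F. DESeq2 1.42.0, limma-voom (limma 3.58.1), other scalings, no filter, a replicate block and leaving out each library were alternatives. The script was tested on simulated data. A count of 0 allows up to 3 counts, which are 0.156 to 0.260 CPM by library total, and covers counting error only, since reads carry no molecular identifiers. Counts do not separate antisense or near-identical genes. The design text calls the libraries of a group biological replicates but the labels name no animals. The p-values set a difference against the spread of the WT libraries only, and cover no variation among KO libraries.

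The members, gene lists, motifs and alternatives were chosen with earlier results of these data known. The naming rule gave values for 19 listed members and the 3 largest differences per comparison. It gave tests for the 5 largest called members per direction, members not called in KO cTEC, Foxm1, Mybl2, Cdkn1a, Cdkn1b, Ccng2 and the 4 largest called others per direction. 1 marker gene is not reported here.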

Additional observations from a re-analysis of the deposited data

Results flagged for a closer look

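In WT cTEC, 7 of 36 members had library 1 farther from libraries 2 to 4 than Dixon's 95% limit for 4 samples. For independent, normally distributed values that limit flags about 1 in 20 groups. The members were read in the same 4 libraries, so their flags are not independent. The share flagged over all tested genes was not computed. Library 1 was the highest at 12.8 CPM for Ccnb1 (others 2.85 to 4.40), 28.7 CPM for Ccna2 (others 9.99 to 11.9), 7.70 CPM for Ttk (others 2.03 to 2.80) and 20.5 CPM for Kif4 (others 3.25 to 4.72). The same held at 32.0 CPM for Cenpe (others 5.38 to 7.55), 13.1 CPM for Birc5 (others 5.38 to 6.24) and 18.05 CPM for Nusap1 (others 3.02 to 4.24). Cdkn2c was farthest in library 4, at 17.3 CPM (others 13.7 to 14.2).

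The KO effect differed between mTEC and cTEC by the interaction test for 4 of 15 cell cycle inhibitors, all 4 above 0. Over all tested genes 6.16% were called higher and 0.644% lower. All 7 medullary and all 5 tuft markers were called higher too, with median log2 differences of 5.54 and 8.88 (edgeR). The part of those markers' cells in the inhibitor values was not tested. The log2 difference, mTEC minus cTEC, was 4.15 ± 0.47 for Cdkn1a (adjusted p = 0.00167, edgeR, with 0.0245 as the highest adjusted p over the alternatives). For Cdkn1c it was 3.69 ± 0.81 (adjusted p = 0.0311, edgeR), and the call was lost with limma-voom (0.173) and without WT cTEC library 4 (0.0523), WT mTEC library 1 (0.0917) or WT mTEC library 2 (0.100). For Cdkn2b it was 3.52 ± 0.47 (adjusted p = 0.00366, edgeR), with the call lost under limma-voom (0.0684). For Btg1 it was 1.75 ± 0.42 (adjusted p = 0.0436, edgeR), with calls lost in 6 of 12 alternatives, the adjusted p ranging from 0.000485 to 0.148.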

How the results depend on the processing

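Over 54 gene results, 626 of 731 values under alternatives kept their direction and side of the threshold, 60 lost the call, 42 gained it and 3 changed sign. Of 32 called gene results 14 kept the call in every alternative run. The sign changes were Kif4 in KO cTEC (-0.0060, with WT cTEC library 1 as the only WT cTEC library) and Ccng2 in KO cTEC (-0.027 without WT cTEC library 1 and -0.0012 without library 3, up to 0.0566 without library 4), none of them called. Members called in WT mTEC against cTEC (14) numbered 25 with limma-voom, 9 with WT cTEC library 1 only, and 0 to 32 when libraries were left out. With the replicate number as a block they numbered 2, and the other 90 genes 3. Same-numbered WT libraries deviated with correlations of -0.146 and -0.0194, so the shared numbers were not read as pairs. In KO cTEC the members called (23) ranged from 18 to 35 when libraries were left out. With WT cTEC library 1 only, 11 members were called in KO mTEC and 5 in the difference of KO effects, which ranged from 0 to 17 when libraries were left out. For the other 90 genes, the WT comparison (21) gave 36 with limma-voom, 12 with WT cTEC library 1 only and 0 to 41 when libraries were left out. Their KO cTEC count (27) ranged from 15 to 43, and 7 were called in KO mTEC with WT cTEC library 1 only. The difference of KO effects gave 1 with DESeq2, 6 with WT cTEC library 1 only and 0 to 4 when libraries were left out. The median coefficient of variation of the members in WT cTEC (62.7%) ranged from 30.7% to 69.5% when libraries were left out. For fits with libraries left out, the share of all tested genes called in the same fit is not given here. Changes in these counts therefore cannot be told apart from changes in what a fit detects. The causes were not tested. Each KO group is 1 library, so no KO spread was measured, and comparisons of a group whose KO library is left out could not be made. Fits with WT cTEC library 1 only take their spread from the WT mTEC pair.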
